A study of Mus musculus with 20 samples.

Results

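The genes described here are known transcriptional targets of p53, sorted by what their products do: growth arrest, kinases and mitosis, apoptosis, DNA repair and nucleotide supply, metabolism, redox and transport, and a small set of receptor, secreted and ribosomal proteins. The list held 36 genes, with the core genes Mdm2 and Cdkn1a left out, and 33 of them were among the 19938 genes measured, each by 1 probe set. Bax, a pore-forming death protein, Fdxr, a mitochondrial reductase, and Gdf15, a secreted cytokine, had no probe set with a single symbol in the annotation used here and are named only. Their expression was compared in LLC-1 tumors, implants of the Lewis lung carcinoma cell line in C57Bl/6 mice, after gene transfer with adenoviral vectors. The 4 groups of 5 tumors received vectors for p19Arf and IFNbeta together (p19Arf+IFNbeta), for IFNbeta, for p19Arf, or for enhanced green fluorescent protein (eGFP, the control). Every group, control included, thus carried adenovirus and was injected into the tumor 5 times, 48 h apart, with 25 µl at a viral dose whose log10 was 8, titred in infectious units by the kit the labels name. For the vectors' promoters, the age of the mice and the time between last injection and RNA extraction, the sources hold no statement. The tumors of a group carry separate numbers in the labels, and all p-values measure only the spread between these samples.

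p53 is a transcription factor that is kept low by the ligase Mdm2 and accumulates after DNA damage, oncogene activity or other stress. p19Arf, encoded in an alternative reading frame of Cdkn2a, binds Mdm2 and so stabilises p53. The targets of p53 slow the cell cycle, trigger cell death, assist DNA repair, adjust metabolism and restrain p53 itself, and different cells use different subsets of them. Interferon beta signals through a shared type I receptor, and the Trp53 gene is known as one of the genes that type I interferon can induce.

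Values are the deposited log2 expression values, 1 per array, so a difference of 1 is a 2-fold change, and levels are compared only within a gene. Array medians ran from 7.49 to 7.61. The standard deviation of all values on an array, called its spread below, ran from 1.99 to 2.15 and averaged 2.06 ± 0.05 with p19Arf+IFNbeta, 2.11 ± 0.04 with IFNbeta, 2.06 ± 0.05 with p19Arf and 2.11 ± 0.03 with eGFP (SD, n = 5 each). The mean level of 15 skeletal muscle markers was 8.33 ± 0.63 with p19Arf+IFNbeta, 8.32 ± 0.78 with IFNbeta, 8.04 ± 0.65 with p19Arf and 7.51 ± 0.27 with eGFP. The 4 epithelial markers read for the carcinoma label, Krt8, Krt18, Cdh1 and Epcam, had a mean of 7.30 ± 0.25 with p19Arf+IFNbeta, 7.20 ± 0.19 with IFNbeta, 7.26 ± 0.13 with p19Arf and 7.21 ± 0.10 with eGFP. Levels of different probe sets cannot be compared and no detection calls were at hand, so whether these markers were present or absent was not tested. IFNbeta replicate 3 stood apart from its group in the mean of epidermis markers, 8.907, where the 4 arrays beside it had 6.344 to 6.52. Of 7 interferon-induced genes measured to check the treatment, 7 had a higher mean with IFNbeta than with eGFP, by 0.35 to 0.59, and with p19Arf+IFNbeta the differences from eGFP ran from -0.27 in Ifit1 to 0.28 in Irf7, 4 of them above 0. The mean level of the 7 genes was highest on IFNbeta replicate 3, at 10.574. In tumor pieces like these, fewer cells of a type and less RNA per cell cannot be told apart.

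The promoter windows of the members were read because p53 acts on its targets through a defined DNA sequence. RefSeq windows of 300 bases (GRCm38.p6), running from 250 bases before to 50 after an annotated start, were found for 26 of the 33 measured members. The 10-base p53 consensus unit, which reads the same on both strands, stood in the window of 8 of these 26 genes (30.8%), against 9.55% of 27025 genes with a window. A pair of units with at most 13 bases between them and at most 1 mismatch, the form in which p53 binds as a tetramer, stood in 2 of the 26 (7.69%), against 0.718% of all genes. These were Ccng1 and Rps27l, and the single units stood at Aen, Ddit4l, Ei24, Gadd45a, Polk and Sesn1. The members were listed as known p53 targets, so their higher share cannot serve as a test. A gene was counted if any of its windows held a match, whatever the number of its windows. A match is a run of letters and not a measured binding site. The sequences below belong to the 2 genes with a pair and to 3 of the members with a single unit. Those of Aen, Polk and Sesn1 are not printed. The printed sequences run 5′ to 3′ along the gene's strand with each unit in capitals.
Ccng1 (chr11:40755442-40755501, minus strand): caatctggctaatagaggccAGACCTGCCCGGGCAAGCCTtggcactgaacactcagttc
Rps27l (chr9:66946183-66946335, plus strand): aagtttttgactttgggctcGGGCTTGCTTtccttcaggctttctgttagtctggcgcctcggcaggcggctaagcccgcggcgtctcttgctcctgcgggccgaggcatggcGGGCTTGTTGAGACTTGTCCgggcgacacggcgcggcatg
Gadd45a (chr6:67037418-67037467, minus strand): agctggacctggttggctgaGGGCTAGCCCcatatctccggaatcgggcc
Ddit4l (chr3:137623562-137623611, plus strand): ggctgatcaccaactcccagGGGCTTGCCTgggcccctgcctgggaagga
Ei24 (chr9:36797315-36797364, minus strand): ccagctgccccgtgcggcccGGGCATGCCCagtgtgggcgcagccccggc
In Rps27l the first capitals are a single unit and the second are the pair, as are the capitals of Ccng1. These positions belong to 1 annotated start each, which in Rps27l lies 1789 bases inside the gene from its outermost start, as do the windows with a match in Polk and Sesn1, 23392 and 76865 bases inside. Counted from that start, the first capital stands at -195 in Ccng1, -210 in Rps27l, -40 in Gadd45a, -90 in Ddit4l and -10 in Ei24. As the values below show, Ddit4l and Gadd45a had higher means in p19Arf+IFNbeta tumors than in eGFP tumors while Ei24, Ccng1 and Rps27l had lower ones.

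The first role, growth arrest, kinases and mitosis, had all 8 of its genes measured. Btg2, an antiproliferative protein that recruits the deadenylase complex, was at 9.31, 8.86, 9.18, 9.16 and 8.71 with p19Arf+IFNbeta and at 8.81, 8.70, 9.19, 8.64 and 8.85 with IFNbeta. It was at 8.65, 9.04, 8.89, 8.77 and 8.40 with p19Arf and at 9.07, 8.54, 8.48, 8.33 and 8.14 with eGFP. The control array of replicate 1 was as high as the combination arrays while the other 4 controls lay lower, so 3 of 5 combination arrays were above every control and the groups overlapped. Btg2 differed from eGFP by 0.53 with p19Arf+IFNbeta (SE 0.16, 95% interval 0.21 to 0.86), the largest positive difference of any member in the 3 comparisons with eGFP. The unadjusted limma p was 0.00249, the exact permutation p 0.0317 and the p adjusted over all genes 0.234. With IFNbeta the Btg2 difference was 0.33 (SE 0.16) and with p19Arf it was 0.24 (SE 0.16, 95% interval -0.08 to 0.57). Without eGFP replicate 1 the combination differed by 0.67 and passed at an adjusted limma p of 0.0446, as did 0.421% of all genes there, and this p was the lowest value over its alternatives, which reached up to 0.724.

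Gadd45a, a stress sensor that binds Cdk1 and PCNA, was at 8.74, 8.52, 8.53, 8.98 and 8.50 with p19Arf+IFNbeta and at 8.35, 8.43, 8.81, 8.41 and 8.76 with IFNbeta. With p19Arf it was at 8.61, 8.73, 8.40, 8.35 and 8.25 and with eGFP at 8.49, 8.51, 8.23, 8.36 and 8.19. All combination arrays but replicate 5, at 8.50, were above the highest control of 8.51. The combination differed from eGFP by 0.30 (SE 0.12, unadjusted limma p 0.0208), and the other vectors by 0.20 and 0.11 with intervals that include 0. Plk3, a polo-like kinase of the stress response, was at 9.04, 9.04, 9.04, 9.16 and 8.91 with p19Arf+IFNbeta and at 8.84, 8.93, 8.99, 9.08 and 9.56 with IFNbeta. It was at 8.82, 9.21, 8.75, 8.45 and 8.50 with p19Arf and at 8.93, 9.22, 8.76, 8.93 and 9.01 with eGFP. Its p19Arf arrays spread over the whole range of the controls and below it. The p19Arf difference from eGFP was -0.23 (SE 0.14), and -0.15 without p19Arf replicate 4.

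The other 5 genes of this role had differences from eGFP between -0.16 and 0.24, and every interval included 0. Ccng1, cyclin G1, which feeds back on Mdm2, averaged 11.57 ± 0.33 with p19Arf+IFNbeta, 11.89 ± 0.31 with IFNbeta, 11.65 ± 0.23 with p19Arf and 11.73 ± 0.15 with eGFP (SD, n = 5 each). Plk2, a polo-like kinase of centriole duplication, averaged 8.42 ± 0.13 with p19Arf+IFNbeta, 8.65 ± 0.14 with IFNbeta, 8.34 ± 0.35 with p19Arf and 8.40 ± 0.19 with eGFP. Btg1, a relative of Btg2, was close between groups, at 11.70 ± 0.28 with p19Arf+IFNbeta, 11.81 ± 0.08 with IFNbeta, 11.72 ± 0.17 with p19Arf and 11.82 ± 0.10 with eGFP. Psrc1, a microtubule protein of the spindle, varied least of all members, with means from 7.82 to 7.87 and a pooled standard deviation within groups of 0.08. Dyrk3, a kinase that dissolves stress granules, averaged 8.37 ± 0.10 with p19Arf+IFNbeta and 8.49 ± 0.10 with eGFP.

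Among the apoptosis genes 11 of 12 were measured, and 7 of them are given on every array. Eda2r, a receptor of the TNF receptor family, was at 7.62, 8.03, 7.93, 8.11 and 7.96 with p19Arf+IFNbeta and at 8.01, 8.06, 8.27, 8.39 and 8.48 with IFNbeta. It was at 8.03, 8.39, 7.74, 7.70 and 7.74 with p19Arf and at 7.57, 7.95, 7.71, 8.00 and 7.77 with eGFP. All 5 IFNbeta arrays lay above all 5 controls, the nearest at 8.01 against 8.00. The IFNbeta difference was 0.44 (SE 0.13, 95% interval 0.16 to 0.72), with an unadjusted limma p of 0.00324 and an exact permutation p of 0.00794, the smallest that 5 arrays against 5 can give. It did not pass over all genes. With p19Arf+IFNbeta the Eda2r difference was 0.13 (SE 0.13) and with p19Arf it was 0.12 (SE 0.13). The IFNbeta difference was 0.28 with the skeletal muscle score in the model. Eda2r had the highest correlation with that score of any member (Pearson r = 0.59, permutation p = 0.0063, adjusted 0.152 over 33 relations; Spearman rho = 0.546, permutation p = 0.0139, adjusted 0.259). That correlation was 0.523 without the 2 arrays farthest from the median score and 0.539 for deviations from the group means.

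Zmat3, a zinc finger protein that regulates splicing and RNA stability, was at 9.49, 9.56, 9.70, 9.49 and 9.42 with p19Arf+IFNbeta and at 9.45, 9.47, 9.63, 9.45 and 9.54 with IFNbeta. It was at 9.45, 9.90, 9.48, 9.32 and 9.31 with p19Arf and at 9.44, 9.24, 8.97, 9.37 and 9.18 with eGFP. The 5 IFNbeta arrays and 4 of 5 combination arrays were above every control. Zmat3 was the only member with an unadjusted p under 0.05 in all 3 comparisons with eGFP: 0.30 with p19Arf+IFNbeta, 0.27 with IFNbeta and 0.26 with p19Arf (SE 0.11 each). The 3 comparisons share the 5 control arrays, among which replicate 3 was lowest at 8.97. Without p19Arf replicate 2, at 9.90, the p19Arf difference was 0.15.

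Trp53inp1, a protein of nuclear bodies and autophagy, was at 9.65, 9.46, 9.67, 9.02 and 9.04 with p19Arf+IFNbeta and at 9.57, 9.44, 9.23, 9.63 and 9.84 with IFNbeta. It was at 9.53, 9.24, 9.51, 9.02 and 9.20 with p19Arf and at 9.13, 9.21, 9.29, 9.49 and 9.10 with eGFP. The combination arrays lay on either side of the controls, whereas 3 of 5 IFNbeta arrays were above all of them. The IFNbeta difference was 0.30 (SE 0.14, unadjusted limma p 0.0455).

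Aen, a nuclease of apoptosis, was at 8.63, 8.64, 8.77, 8.94 and 8.67 with p19Arf+IFNbeta and at 8.54, 8.57, 8.80, 8.44 and 8.67 with IFNbeta. It was at 8.68, 9.03, 8.55, 8.61 and 8.47 with p19Arf and at 8.51, 8.35, 8.45, 8.56 and 8.42 with eGFP. Each combination array was above each control, and 3 of 5 arrays were with either single vector. The Aen difference was 0.27 with p19Arf+IFNbeta (SE 0.10, unadjusted limma p 0.0122, exact permutation p 0.00794) and 0.21 with p19Arf (SE 0.10). The p19Arf value was 0.12 without p19Arf replicate 2. Apaf1, the scaffold of the apoptosome, was at 10.23, 10.14, 10.14, 10.06 and 10.07 with p19Arf+IFNbeta and at 9.97, 10.03, 10.04, 9.95 and 10.06 with IFNbeta. With p19Arf it was at 10.03, 10.26, 10.13, 9.75 and 9.85 and with eGFP at 9.92, 9.94, 10.00, 9.96 and 9.74. The combination arrays again all lay above the controls, by a difference in means of 0.21 (SE 0.09, unadjusted limma p 0.0243, exact permutation p 0.00794).

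Phlda3, an inhibitor of Akt signalling, was at 9.97, 9.97, 9.92, 9.77 and 9.48 with p19Arf+IFNbeta and at 9.85, 9.81, 9.83, 10.16 and 10.30 with IFNbeta. It was at 10.06, 9.96, 9.95, 10.15 and 9.93 with p19Arf and at 9.70, 9.95, 9.72, 9.77 and 9.99 with eGFP. The difference from eGFP was -0.01 with p19Arf+IFNbeta, 0.16 with IFNbeta and 0.18 with p19Arf (SE 0.11 each), and the groups overlapped in each case. Ei24, an endoplasmic reticulum protein of autophagy and apoptosis, was at 9.93, 10.06, 9.48, 8.68 and 8.81 with p19Arf+IFNbeta and at 10.26, 10.15, 9.28, 10.37 and 10.25 with IFNbeta. It was at 10.31, 8.99, 9.73, 9.75 and 9.75 with p19Arf and at 9.45, 10.08, 10.04, 10.42 and 10.02 with eGFP. Its lowest values stood on single arrays: combination replicates 4 and 5, p19Arf replicate 2 and IFNbeta replicate 3. Next were eGFP replicate 1 at 9.45, with the other controls at 10.02 to 10.42, and combination replicate 3 at 9.48. The difference of p19Arf+IFNbeta from eGFP was -0.61 (SE 0.27, unadjusted limma p 0.0323, exact permutation p 0.103), the most negative of any member.

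The remaining 4 apoptosis genes had no unadjusted p under 0.05 against eGFP. Bbc3, which encodes the death activator Puma, averaged 7.49 ± 0.28 with p19Arf+IFNbeta, 7.24 ± 0.17 with IFNbeta, 7.46 ± 0.22 with p19Arf and 7.29 ± 0.15 with eGFP (SD, n = 5 each). Pmaip1, which encodes its relative Noxa, averaged 7.59 ± 0.19 with p19Arf+IFNbeta, 7.55 ± 0.08 with IFNbeta, 7.68 ± 0.08 with p19Arf and 7.56 ± 0.13 with eGFP. Triap1, an inhibitor of apoptosis, had a mean of 8.71 ± 0.13 with IFNbeta and means of 8.53 to 8.55 in the other groups. Perp, a membrane protein of desmosomes that is abundant in skin, was at 10.04 on IFNbeta replicate 3, the array with the high epidermis score, and at 6.46 to 7.78 on the other 19 arrays.

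**Figure D1:**
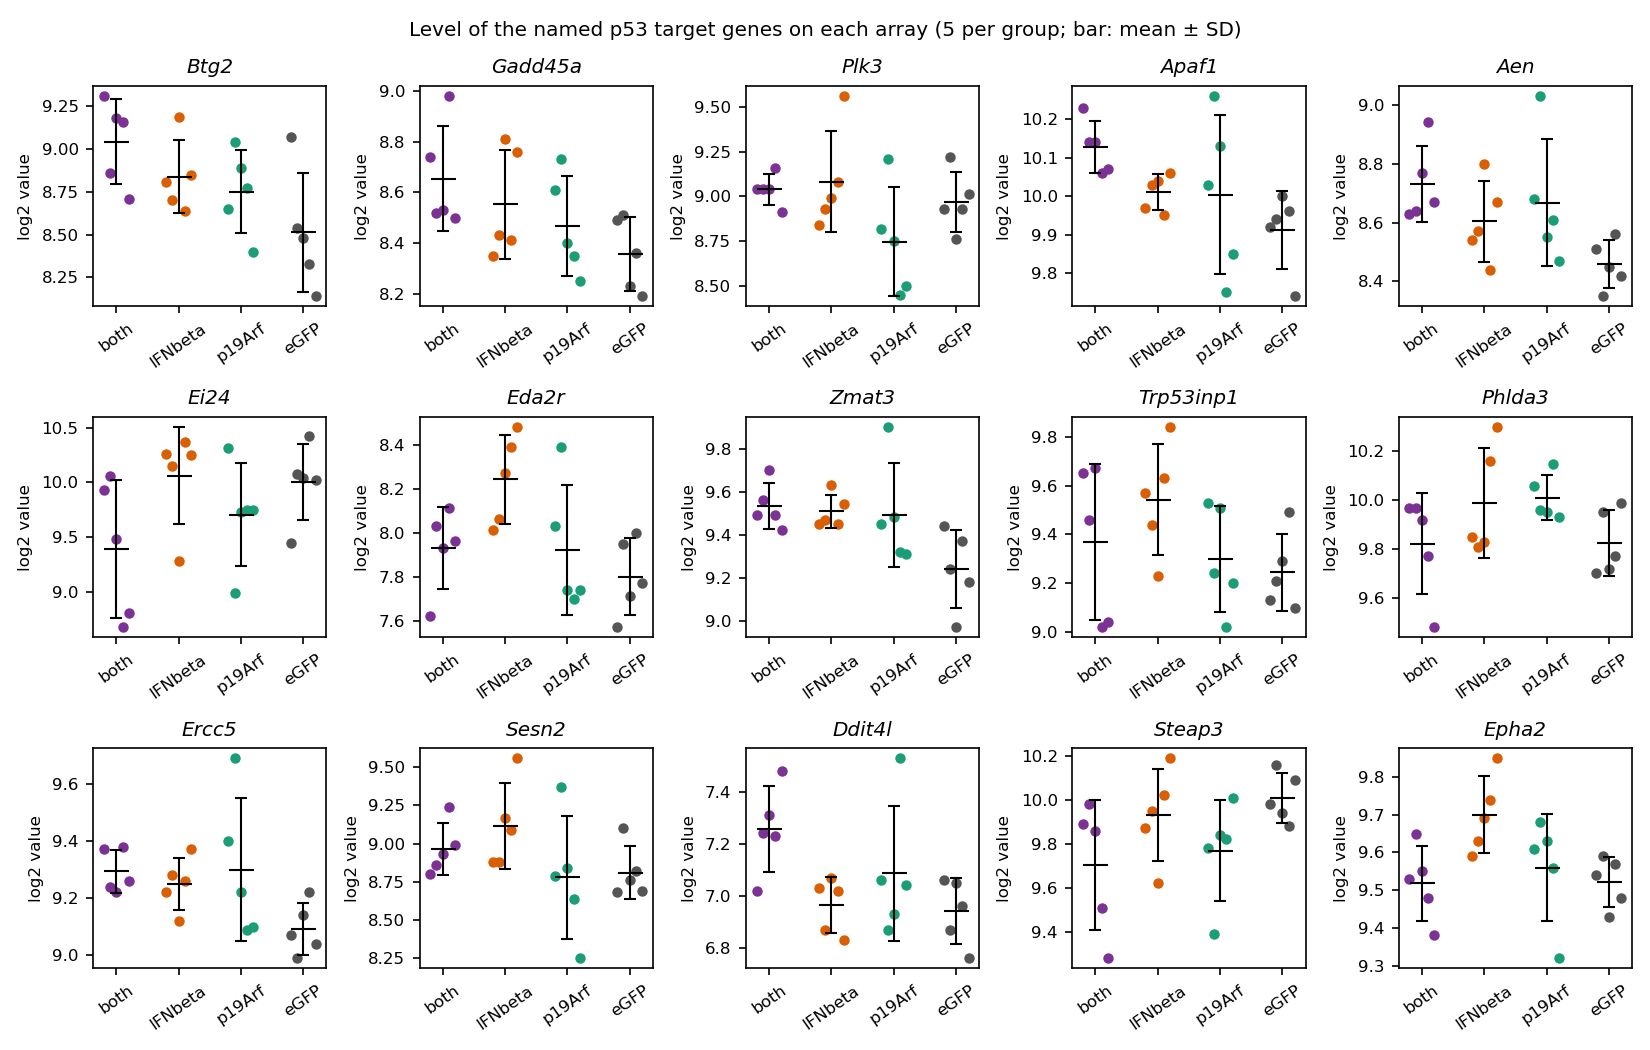
Log2 expression value (vertical axis, own scale per gene) of the 15 p53 target genes named in full, on each array of the p19Arf+IFNbeta (both), IFNbeta, p19Arf and eGFP groups, 5 arrays each; the bars show the mean and SD. The IFNbeta points of Eda2r and Zmat3 and the p19Arf+IFNbeta points of Apaf1 and Aen lie above all eGFP points. At the rounding of the plotted values, the lowest IFNbeta point of Epha2 is level with its highest eGFP point. The same holds for the lowest p19Arf+IFNbeta point of Ercc5. The low Ei24 values stand on a few arrays.

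DNA repair and nucleotide supply had 5 genes, all measured. Ercc5, the endonuclease that cuts on the 3′ side of a lesion in nucleotide excision repair, was at 9.37, 9.24, 9.22, 9.38 and 9.26 with p19Arf+IFNbeta and at 9.22, 9.28, 9.12, 9.26 and 9.37 with IFNbeta. It was at 9.40, 9.69, 9.22, 9.09 and 9.10 with p19Arf and at 9.07, 8.99, 9.14, 9.22 and 9.04 with eGFP. The lowest combination array, at 9.22, touched the highest control at the same rounded value and lay above it before rounding. Differences from eGFP were 0.20 with p19Arf+IFNbeta (SE 0.10, exact permutation p 0.00794), 0.16 with IFNbeta (SE 0.10) and 0.21 with p19Arf (SE 0.10, unadjusted limma p 0.0441). The p19Arf value was 0.11 without p19Arf replicate 2. The other 4 genes stayed within 0.15 of eGFP in each group. Xpc, which recognises distorted DNA, had means from 8.04 to 8.13, and Ddb2, its partner at ultraviolet lesions, from 7.42 to 7.53. Polk, a polymerase that copies past lesions, had means from 9.66 to 9.76. Rrm2b, the p53-induced subunit of ribonucleotide reductase, averaged 7.90 ± 0.26 with p19Arf+IFNbeta and 8.05 ± 0.10 with eGFP (SD, n = 5 each).

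Of the genes of metabolism, redox and transport, 7 of 8 were measured, and they differed from eGFP in both directions. Sesn2, a sestrin that restrains mTORC1, was at 8.80, 8.86, 8.93, 9.24 and 8.99 with p19Arf+IFNbeta and at 8.88, 8.88, 9.17, 9.09 and 9.56 with IFNbeta. It was at 8.79, 9.37, 8.84, 8.64 and 8.25 with p19Arf and at 8.68, 9.10, 8.76, 8.82 and 8.69 with eGFP. All groups overlapped, and the IFNbeta difference of 0.31 (SE 0.16, unadjusted limma p 0.0673) was 0.20 without IFNbeta replicate 5. Ddit4l, a relative of the mTOR inhibitor Redd1, was at 7.02, 7.24, 7.31, 7.23 and 7.48 with p19Arf+IFNbeta and at 7.03, 6.87, 7.07, 7.02 and 6.83 with IFNbeta. It was at 7.06, 6.87, 6.93, 7.53 and 7.04 with p19Arf and at 7.06, 6.87, 7.05, 6.96 and 6.76 with eGFP. Apart from combination replicate 1, the combination arrays were above every IFNbeta and every eGFP array. The combination differed from eGFP by 0.32 (SE 0.11, unadjusted limma p 0.00862, exact permutation p 0.0238). Steap3, a reductase of endosomal iron uptake, was at 9.89, 9.98, 9.86, 9.51 and 9.28 with p19Arf+IFNbeta and at 9.87, 9.95, 9.62, 10.02 and 10.19 with IFNbeta. It was at 9.78, 9.39, 9.84, 9.82 and 10.01 with p19Arf and at 9.98, 10.16, 9.94, 9.88 and 10.09 with eGFP. Only 1 p19Arf array and 2 combination arrays reached the range of the controls. The Steap3 differences were -0.30 with p19Arf+IFNbeta (SE 0.13, unadjusted limma p 0.0335) and -0.24 with p19Arf (SE 0.13). The p19Arf value was -0.15 without p19Arf replicate 2 and -0.10 with the array spread in the model.

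Sesn1, the other sestrin, averaged 8.91 ± 0.18 with p19Arf+IFNbeta, 9.21 ± 0.10 with IFNbeta, 8.94 ± 0.39 with p19Arf and 9.10 ± 0.36 with eGFP (SD, n = 5 each). Slc19a2, the thiamine transporter, averaged 9.80 ± 0.21 with p19Arf+IFNbeta, 10.07 ± 0.20 with IFNbeta, 9.92 ± 0.14 with p19Arf and 10.00 ± 0.13 with eGFP. Ak1, adenylate kinase, and Dcxr, a carbonyl reductase, had group means from 9.08 to 9.25 and from 8.62 to 8.75. Epha2, an ephrin receptor kinase, was at 9.53, 9.65, 9.55, 9.48 and 9.38 with p19Arf+IFNbeta and at 9.59, 9.63, 9.69, 9.74 and 9.85 with IFNbeta. It was at 9.61, 9.68, 9.63, 9.56 and 9.32 with p19Arf and at 9.54, 9.59, 9.43, 9.57 and 9.48 with eGFP. The 5 IFNbeta arrays lay above the controls, the lowest by less than the rounding of the values, with a difference of 0.18 (SE 0.08, unadjusted limma p 0.0397, exact permutation p 0.00794). Rps27l, a ribosomal protein paralog that p53 induces, averaged 11.28 ± 0.63 with p19Arf+IFNbeta, 11.73 ± 0.42 with IFNbeta, 11.42 ± 0.49 with p19Arf and 11.69 ± 0.20 with eGFP, so its standard deviation with p19Arf+IFNbeta was larger than any of its differences from eGFP. Rps27 is a close paralog, and the value is uncertain to the extent that the probes bind both.

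In IFNbeta tumors the p53 targets leaned above the control: 26 of 33 members had a higher mean than in eGFP tumors, by 9 of 11 in apoptosis, 7 of 8 in arrest and mitosis, 5 of 7 in metabolism, 3 of 5 in repair and 2 of 2 in the last role. The median member difference was 0.11, against -0.02 over all genes, and 44.2% of all genes had a higher mean. At the adjusted limma threshold of 0.05, 0 members and 0.0% of all genes passed, with a smallest adjusted p of 0.836 over all genes. At an unadjusted limma p under 0.05, 5 members were higher and 0 lower (15.2% and 0.0% of members), against 1.34% of all genes higher and 1.45% lower. The 5 were Eda2r, Zmat3, Epha2, Trp53inp1 and Btg2. Groups did not overlap in 3 members, all higher, against 0.552% of genes higher and 0.346% lower. The 5 members became 1 without eGFP replicate 3, 2 without eGFP replicate 5 or IFNbeta replicate 5, and 3 without eGFP replicate 1 or IFNbeta replicate 3 or 4. The count was also 3 with the skeletal muscle score in the model and 2 after quantile normalization, while the median difference stayed between 0.08 and 0.15 over all alternatives run.

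In p19Arf tumors the members were close to the control, with 19 of 33 higher in mean and a median difference of 0.03, against 0.02 over all genes. By role, 9 of 11 apoptosis genes and 4 of 5 repair genes had higher means, but only 2 of 8 arrest and mitosis genes and 3 of 7 metabolic genes. No member and 0.0% of all genes passed the adjusted threshold (smallest adjusted limma p 0.661 over all genes). At an unadjusted limma p under 0.05, 3 members were higher, namely Zmat3, Ercc5 and Aen, and 0 lower (9.09% and 0.0%), against 2.84% of all genes higher and 4.4% lower. In all 3 of them p19Arf replicate 2 was the highest array of its group. Without it the count was 1. The count was also 1 without eGFP replicate 2, IFNbeta replicate 1 or 2, or p19Arf replicate 1, and 0 without eGFP replicate 3 or 5. No member had groups that did not overlap, against 0.251% of genes higher and 0.441% lower. With the skeletal muscle score in the model the count was 0, and with the array spread it was 5.

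With p19Arf and IFNbeta together 21 of 33 members had a higher mean than with eGFP, and the median difference was 0.03, against 0.02 over all genes, ranging from -0.01 to 0.10 over the alternatives. Here members lay on both sides of the control: Btg2, Ddit4l, Zmat3, Aen, Gadd45a and Apaf1 were higher and Ei24 and Steap3 lower at an unadjusted limma p under 0.05. These 6 and 2 members are 18.2% and 6.06% of the list, against 6.18% and 11.4% of all genes. At the adjusted threshold 0 members and 0.0% of genes passed, with a smallest adjusted p of 0.234. Aen, Apaf1 and Ercc5 had groups that did not overlap, all higher, against 0.782% of genes higher and 0.547% lower. The count of 8 was 5 without eGFP replicate 5 or p19Arf+IFNbeta replicate 4, and 4 with the skeletal muscle score in the model. With array weights Btg2 (0.62) and Zmat3 (0.41) passed at an adjusted limma p of 0.0488, where 0.833% of all genes did.

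**Figure D2:**
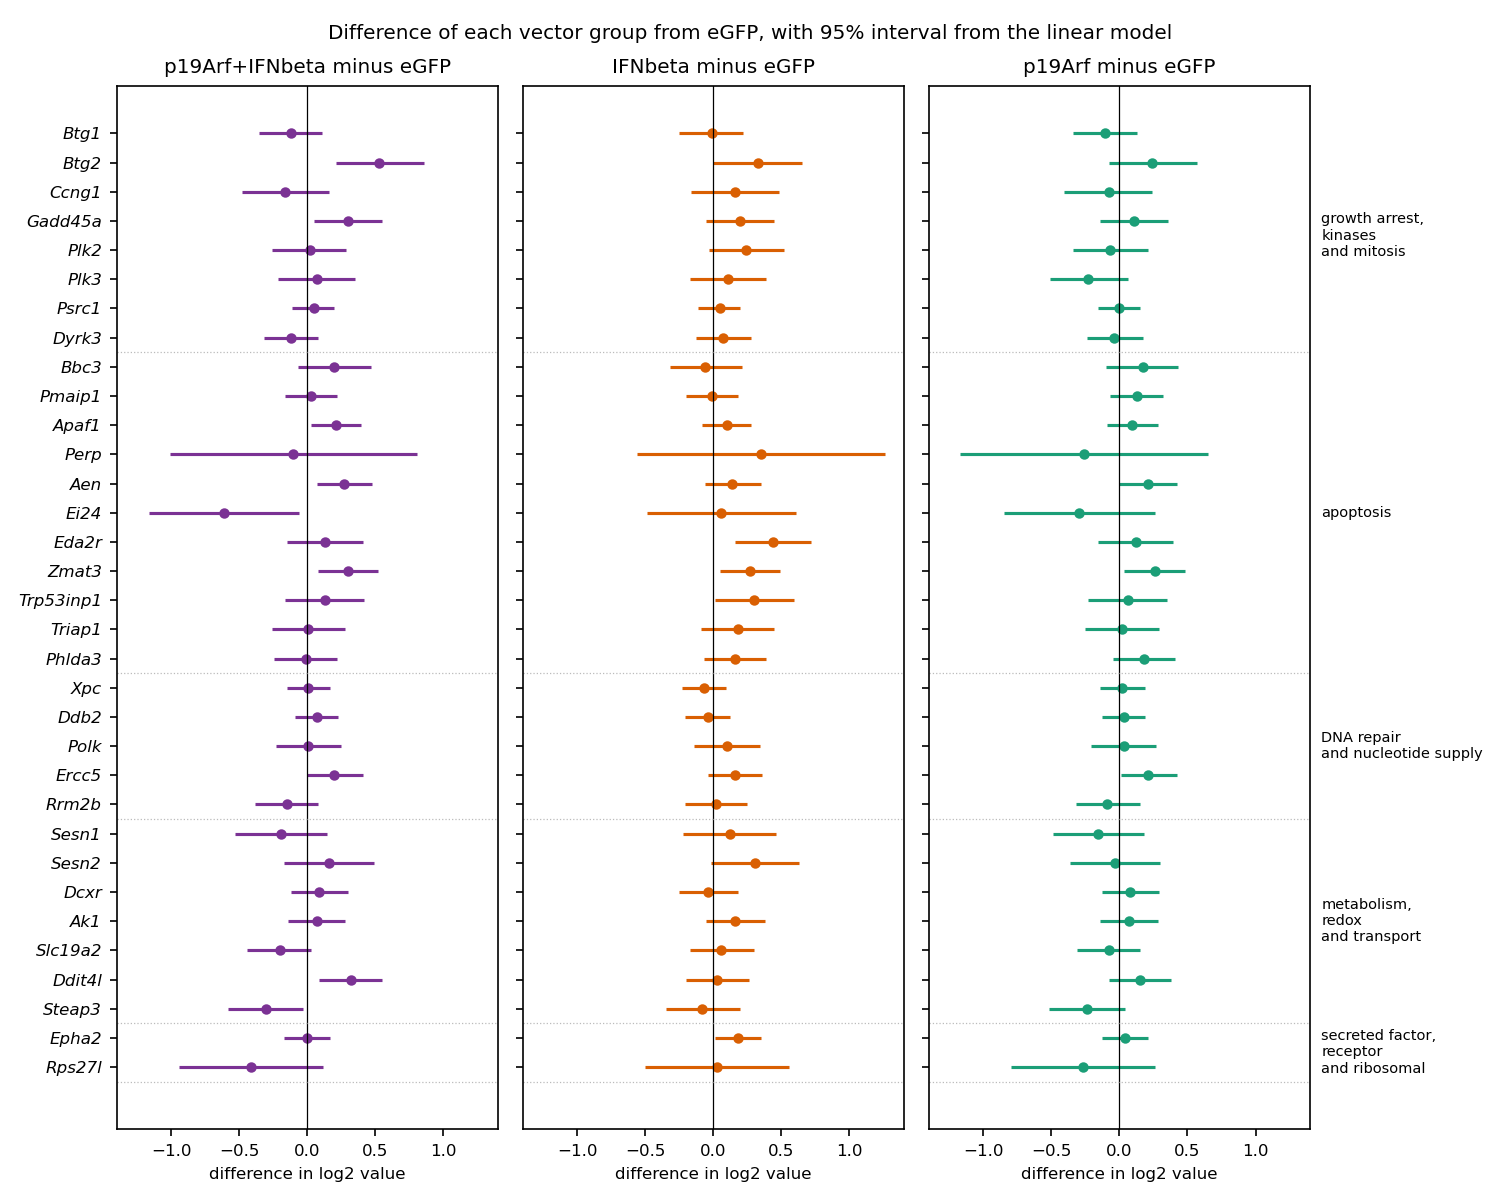
Difference in mean log2 value from the eGFP group (horizontal axis) for the 33 measured members, ordered by role, in p19Arf+IFNbeta, IFNbeta and p19Arf tumors; lines are 95% intervals from the linear model. The IFNbeta points lie mostly to the right of 0 (26 of 33), the p19Arf points on both sides (19 of 33 right of it), and the widest interval is that of Perp.

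The combination was also set against each single vector. The labels give the same volume and viral dose for the combination as for each single vector. They do not show the dose of each vector within it. An added gene and a lower dose of the other vector thus cannot be told apart here, in the interaction or in the averages below. Against IFNbeta 13 of 33 members were higher in mean and the median difference was -0.10, against 0.05 over all genes. At an unadjusted limma p under 0.05 Ddit4l was higher, by 0.29 (SE 0.11), and Ei24 (-0.67), Slc19a2 (-0.27), Eda2r (-0.31) and Epha2 (-0.18) were lower. That is 3.03% and 12.1% of members, against 11.8% and 14.0% of all genes, so neither share exceeded the background, and 0.0% of genes passed the adjusted threshold. The count of 5 was 1 to 2 without IFNbeta replicate 4 or 5 or combination replicate 4 or 5. It was 8 without p19Arf replicate 2, 10 without IFNbeta replicate 3 and 11 without combination replicate 2, where 28.2%, 36.1% and 34.6% of all genes were under 0.05. With the array spread in the model it was 1, against 5.03% of all genes. Without IFNbeta replicate 3, 2 members passed at an adjusted p under 0.05, Ei24 (-0.87, adjusted limma p 0.0401) and Slc19a2 (-0.34, adjusted limma p 0.0475), while 11.8% of all genes passed.

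Against p19Arf alone, 16 of 33 members were higher in mean with p19Arf+IFNbeta, and only Plk3 had an unadjusted limma p under 0.05, at 0.29 (SE 0.14). This 3.03% of members stood against 1.83% of all genes higher and 1.24% lower, with 0.0% past the adjusted threshold. The single count became 0 without p19Arf+IFNbeta replicate 1, 2, 3 or 4 or p19Arf replicate 3 or 5, 2 without eGFP replicate 1 or p19Arf+IFNbeta replicate 5, and 4 without p19Arf replicate 2.

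The interaction asked whether p19Arf differed from its comparator by the same amount with and without IFNbeta. It is the combination minus IFNbeta, less p19Arf minus eGFP. Its median over the members was -0.12, with 10 of 33 above 0, against a median of 0.01 over all genes. Eda2r at -0.43 (SE 0.19, unadjusted limma p 0.0329) and Phlda3 at -0.35 (SE 0.16, unadjusted limma p 0.0358) were the 2 members with a p under 0.05, 6.06% of the list. Of all genes 0.813% had a positive and 0.492% a negative interaction at that level, and 0.0% passed the adjusted threshold. Epha2, next among the members, was at -0.22. In each of these 3 genes the combination mean lay below the mean with IFNbeta alone, at 7.93 against 8.24 for Eda2r, 9.82 against 9.99 for Phlda3 and 9.52 against 9.70 for Epha2. The count of 2 was 0 or 1 when any of 11 single arrays was left out, as listed in the closing section.

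Averaged over both levels of the other gene, the 10 tumors with p19Arf were compared with the 10 without. Members were higher in mean in 13 of 33 cases, with a median of -0.06 against 0.04 over all genes, and the median turned to 0.03 under quantile normalization or with the array spread in the model. At an unadjusted limma p under 0.05 Ddit4l (0.22), Aen (0.17) and Bbc3 (0.21) were higher and Ei24 (-0.48), Steap3 (-0.23) and Slc19a2 (-0.17) lower. Both shares, 9.09% and 9.09%, were below the 14.8% of all genes higher and 18.0% lower, and 0.0% passed the adjusted threshold (smallest adjusted p 0.061 over all genes). With the array spread in the model the Ddit4l difference was 0.12, that of Ei24 -0.01 and that of Steap3 -0.08. The count of 6 was 10 without eGFP replicate 1 or p19Arf+IFNbeta replicate 2, 11 without IFNbeta replicate 3, and 3 without IFNbeta replicate 4 or p19Arf+IFNbeta replicate 4. Ei24 passed at an adjusted limma p of 0.0292, 0.0432 and 0.0498 without IFNbeta replicate 3, p19Arf+IFNbeta replicate 2 and p19Arf replicate 1, and Btg2 (0.29) at 0.0493 without eGFP replicate 1. In these 4 fits 19.5%, 15.5%, 14% and 14.8% of all genes passed.

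The 10 tumors with IFNbeta were compared likewise with the 10 without. The 2 groups joined here differed in the treatment check: the 7 interferon-induced genes averaged 9.47 ± 0.22 with p19Arf+IFNbeta and 9.94 ± 0.37 with IFNbeta. They averaged 9.34 ± 0.22 with p19Arf and 9.44 ± 0.08 with eGFP (SD, n = 5 each). Members had a higher mean in 20 of 33 cases and a median of 0.05, against -0.02 over all genes. Btg2 (0.31, SE 0.11, unadjusted limma p 0.0101), Eda2r (0.23), Gadd45a (0.19), Sesn2 (0.25) and Plk3 (0.20) were higher at an unadjusted limma p under 0.05 and 0 members lower, which is 15.2% and 0.0% of members, against 2.77% and 2.15% of all genes. Of these genes 3 belong to arrest and mitosis, 1 to apoptosis and 1 to metabolism. Of all genes 0.0% passed the adjusted threshold. The Eda2r difference was 0.12 with the skeletal muscle score in the model. The count of 5 was 1 to 3 without eGFP replicate 1, 3 or 5, IFNbeta replicate 5, p19Arf+IFNbeta replicate 1 or p19Arf replicate 3, 4 or 5, and 10 without p19Arf replicate 2.

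Beside the members, 19 of 22 further genes of the p53 pathway were measured: regulators of p53 stability, kinases upstream of it, its family members and other targets. Trp53 and Cdkn1a were among the 3 that were not. Of the 19, 9 had a higher mean with p19Arf+IFNbeta than with eGFP, 16 with IFNbeta and 9 with p19Arf, against 55.0%, 44.2% and 54.4% of all genes, and 0 passed the adjusted threshold in any comparison. At an unadjusted limma p under 0.05 the combination had 4 higher and 1 lower, IFNbeta 3 higher and 0 lower, and p19Arf 0 higher and 1 lower. Of all genes 6.18% were higher and 11.4% lower with the combination, 1.34% and 1.45% with IFNbeta, and 2.84% and 4.4% with p19Arf, and the 3 comparisons share the control arrays. Mdm2, the ligase that degrades p53 and itself a p53 target, differed from eGFP by 0.24 with p19Arf+IFNbeta, 0.32 with IFNbeta and 0.17 with p19Arf (SE 0.11 each). In the combination the death receptor Fas differed by 0.47, Pidd1, a scaffold of caspase-2 activation, by 0.40, Trp73, a p53 relative, by 0.21 and Ppm1d, a phosphatase that dampens the p53 response, by -0.44. With IFNbeta alone the death receptor Tnfrsf10b differed by 0.31 and Thbs1, an inhibitor of vessel growth, by 0.34, and with p19Arf alone Pml, a protein of nuclear bodies, by -0.20. The probe set of Cdkn2a, the gene that p19Arf comes from, differed from eGFP by 0.12 with p19Arf+IFNbeta and 0.14 with p19Arf (SE 0.10 each); its place relative to the vector insert is not stated, so it does not check the labels.

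**Figure D3:**
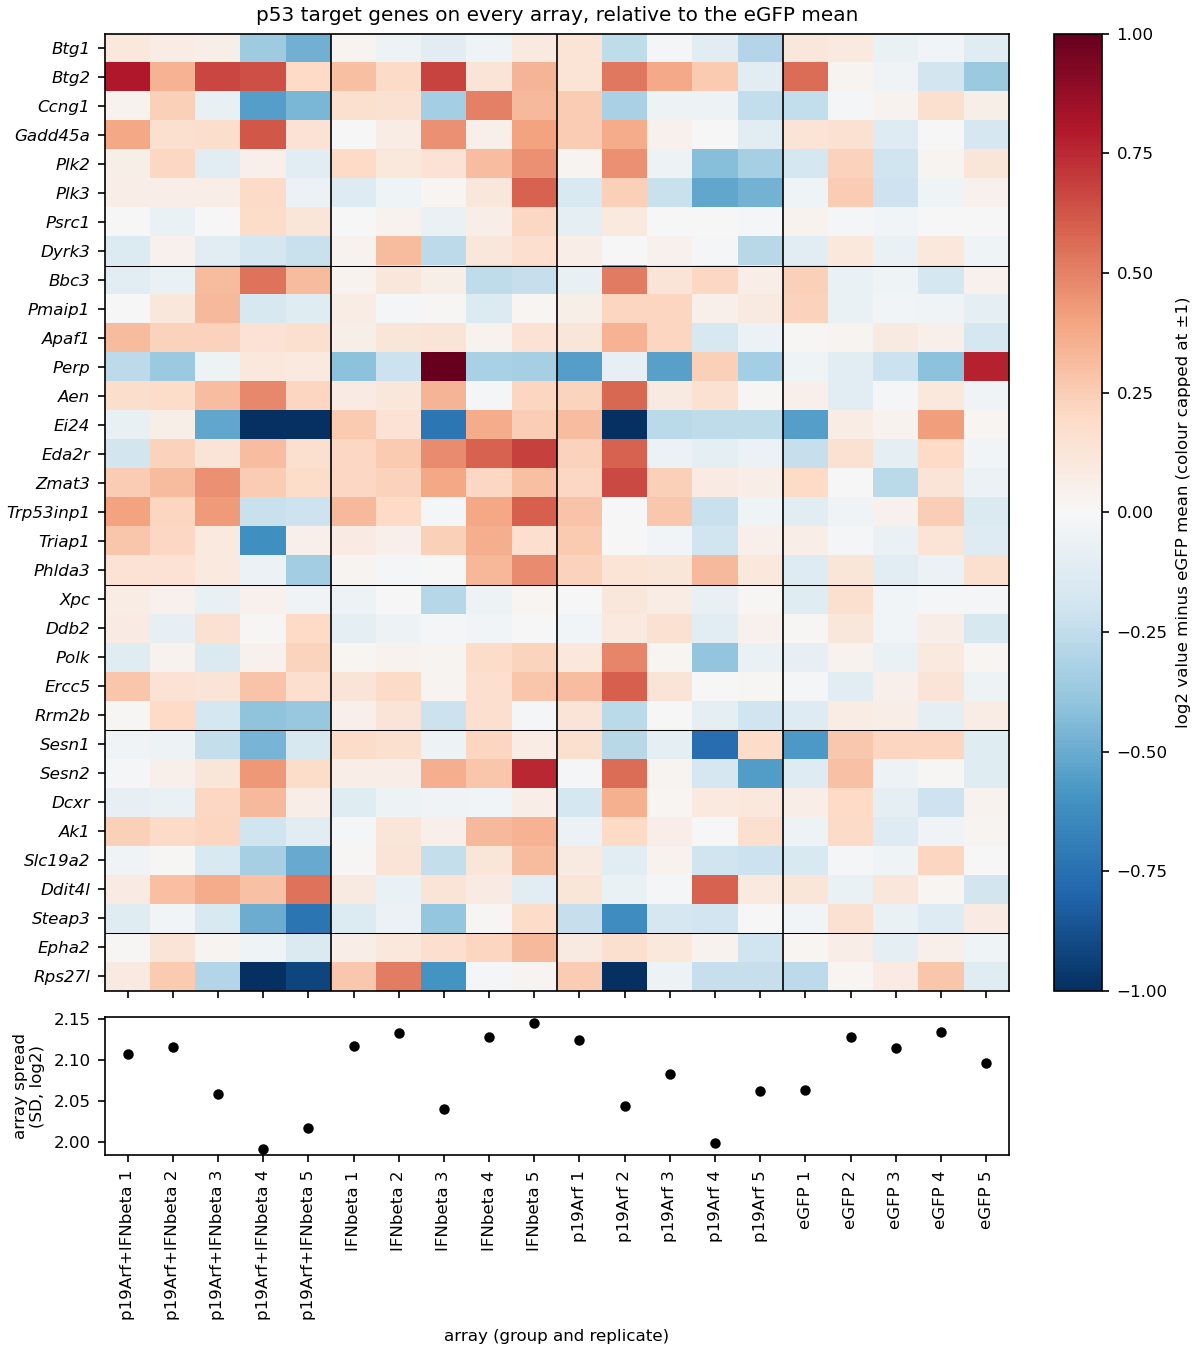
Log2 value of each of the 33 measured members on every array minus the eGFP mean of that gene (colour, capped at 1 in either direction), with arrays in columns from p19Arf+IFNbeta through IFNbeta and p19Arf to eGFP, roles divided by lines, and the array spread in the lower panel. Ei24, Rps27l and Ccng1 are blue on combination replicates 4 and 5, p19Arf replicate 2 and IFNbeta replicate 3, where the array spread is low, and Perp is high on IFNbeta replicate 3 and, to a lesser degree, on eGFP replicate 5.

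Variation among the 20 arrays was larger than most differences between vectors. The pooled standard deviation within groups ran from 0.08 in Psrc1 to 0.81 in Perp, with a median of 0.18 over the members and 0.19 over all genes. Part of it went with the array spread, whose part in the differences between vectors was not tested beyond the model that holds it. Of 33 relations with the spread, 15 had an adjusted permutation p under 0.05, 11 positive and 4 negative. The median r was 0.291, against -0.232 over all genes. In mean array value, which does not measure amounts between genes, the median member stood at percentile 67.8 of all genes. What that adds to this contrast was not tested. The share of all genes that would pass was not counted, so the 15 cannot be read as particular to the members. Ei24 was highest (Pearson r = 0.883, Spearman rho = 0.916, both permutation p-values 1e-05, the smallest that can be given, adjusted 6.6e-05 and 5.5e-05), with 0.954 when the 2 arrays farthest from the median were left out and 0.863 within groups, as deviations from each group's mean. Ccng1 (r = 0.848, rho = 0.881) and Rps27l (r = 0.839, rho = 0.85) had the same adjusted permutation p-values, 0.908 and 0.875 without the 2 arrays, and 0.839 and 0.81 for the deviations. Bbc3 ran the other way (r = -0.821, rho = -0.821, the same adjusted p-values), with -0.798 without the 2 arrays and -0.759 for the deviations. Ddit4l (r = -0.646, permutation p = 0.00191, adjusted 0.00525; rho = -0.573, permutation p = 0.00929, adjusted 0.0219) was also lower where the spread was higher, at -0.499 without the 2 arrays and -0.523 for the deviations. Each member's own value is 1 of the 35556 that enter the spread, and what that adds to these correlations was not tested. For Btg2, Eda2r and Zmat3 the adjusted permutation p-values for Pearson's r were 0.142, 0.578 and 0.418. With the skeletal muscle score 0 of 33 relations passed, while the unadjusted permutation p of Eda2r given above and that of Polk (r = 0.549, permutation p = 0.00923, adjusted 0.152; rho = 0.534, permutation p = 0.0157, adjusted 0.259) were the smallest. The Polk correlation was 0.571 without 2 arrays and 0.581 for the deviations.

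**Figure D4:**
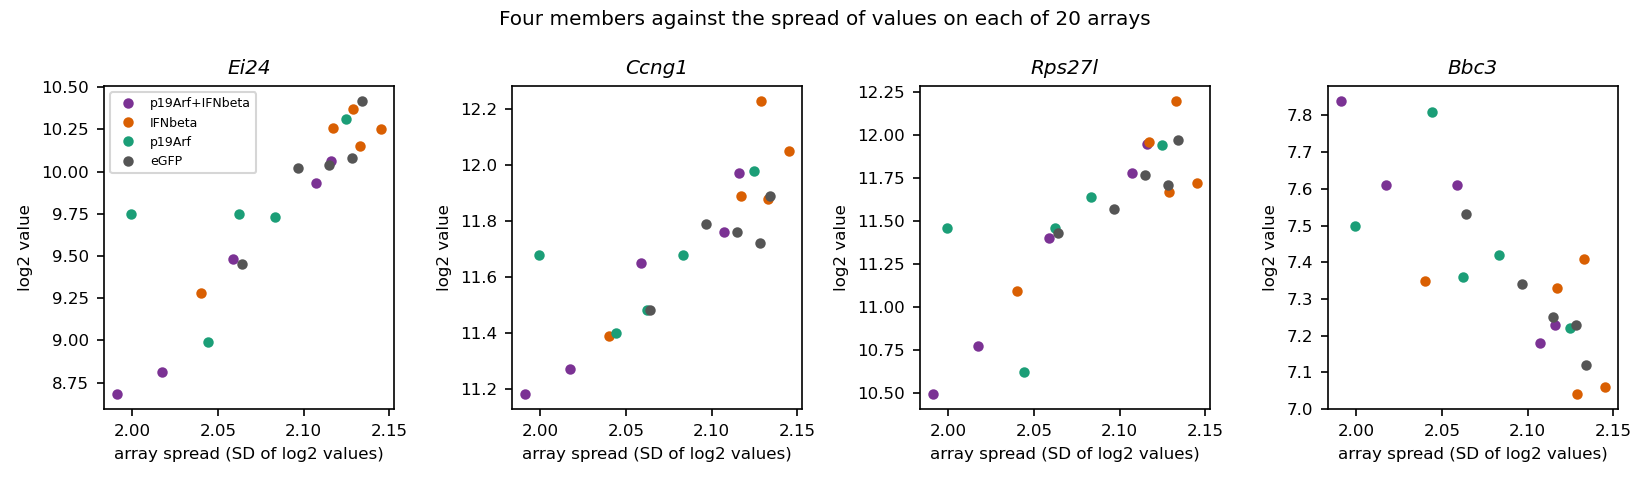
Log2 value of Ei24, Ccng1, Rps27l and Bbc3 (vertical axes) against the spread of each array, the standard deviation of all its log2 values (horizontal axis), for 20 arrays coloured by vector group. Ei24, Ccng1 and Rps27l are higher and Bbc3 is lower where the spread is larger, and p19Arf replicate 4 stands higher in the first 3 genes than the other arrays with a spread near 2.

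The members fell into sets that varied together rather than into 1 block, and these sets crossed the roles. Of 528 pairs of members, 77 had a positive and 21 a negative correlation at an adjusted permutation p under 0.05, with a median r of 0.171. Pairs of other genes were not counted, so whether such sets are particular to p53 targets was not tested. Ei24 of apoptosis went with Rps27l (r = 0.931, rho = 0.871, adjusted permutation p 0.00048 and 0.00066) and with Ccng1 of growth arrest (r = 0.929, rho = 0.934, the same adjusted values). Ccng1 also went with the repair gene Rrm2b (r = 0.889, adjusted permutation p 0.00048; rho = 0.833, adjusted 0.00158). These 4 genes were all positively related to the array spread. A second set, whose members include the kinases Plk2 and Plk3, the sestrin gene Sesn2 and Eda2r, had a correlation of 0.847 between Plk3 and Sesn2 (adjusted permutation p 0.000754; rho = 0.755, adjusted 0.00484). It was 0.834 between Plk2 and Plk3 (adjusted permutation p 0.000754; rho = 0.759, adjusted 0.00384) and 0.811 between Eda2r and Sesn2 (adjusted permutation p 0.00048; rho = 0.794, adjusted 0.00217). Bbc3 and Ei24, both of apoptosis, were opposed (r = -0.878, rho = -0.857, adjusted permutation p 0.00048 and 0.00066). For deviations from the group means these 7 correlations were 0.924, 0.942, 0.881, 0.863, 0.868, 0.801 and -0.855 in the order given. With the 2 farthest arrays left out they were 0.875, 0.922, 0.853, 0.806, 0.726, 0.749 and -0.793.

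**Figure D5:**
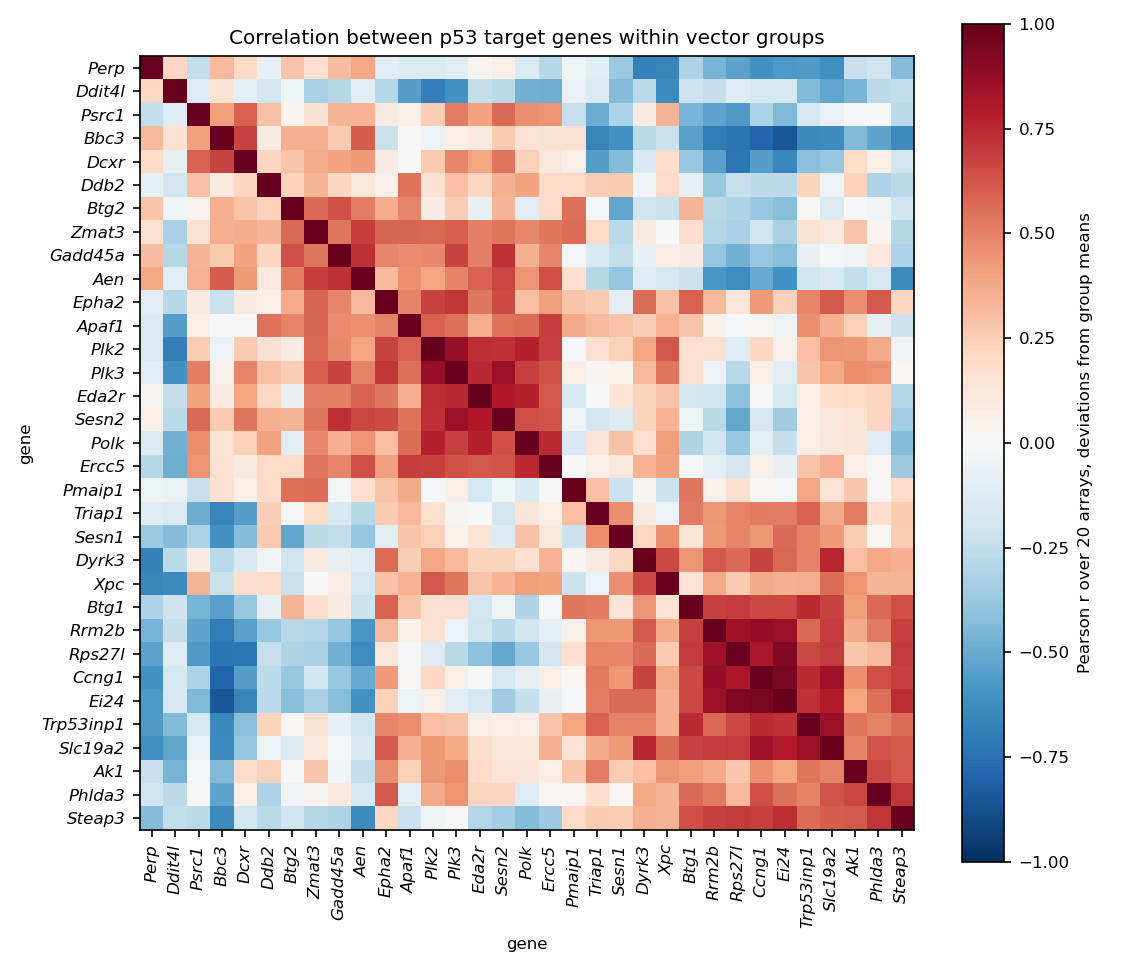
Pearson correlation over 20 arrays between every pair of the 33 measured members, from deviations from the vector group means (colour from -1 to 1), with genes in a clustered order on both axes. A block with Btg1, Rrm2b, Rps27l, Ccng1, Ei24, Slc19a2 and Steap3 and another with Plk2, Plk3, Eda2r, Sesn2, Polk and Ercc5 are positive within themselves, while Bbc3, Dcxr and Perp are negative with the first.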

How the data were processed

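Tumor RNA was hybridised to Affymetrix arrays, 1 per tumor, and the authors deposited log2 expression values for 35556 probe sets on 20 arrays, per the range of the values (2.33 to 14.7), since no header states the base. Per the submitters' processing notes, GCOS and Affymetrix Expression Console were used. How probes were summarised, normalized or filtered is not given in the sources used, no detection call was used, and the number of arrays limits the precision. 0 columns belonged to no sample. Gene names came from GEO's platform annotation and were updated by gene identifier: 21789 had 1 symbol, 1621 several and 12146 none there, and 91 kept the annotation's symbol. For each gene the probe set with 1 symbol and the highest mean was used, with no filter on low values. Correlations between arrays of a group were 0.951 to 0.994, and no pair of arrays shared more than 0.0366% of its values exactly.

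All 19938 genes were fitted with limma 3.58.1, 1 mean per group, in R 4.3.3 (16 residual and 6.06 prior degrees of freedom), with Benjamini-Hochberg adjustment over all genes in each of 8 two-sided contrasts. The script was tested on simulated data with known changes. Single genes were compared by exact 2-sided permutation of 5 arrays against 5. Correlations used 100000 permutations, with adjustment over 33 members or 528 pairs. Named in full were the 6 members with the smallest unadjusted p in each comparison with eGFP and the 3 with the smallest in the interaction and in each of the averages over both levels of the other gene. The members, gene lists and alternatives were chosen with earlier results of these data known. The alternatives were median centring, quantile normalization, trended and robust moderation, array weights, a minimum mean of 6, the mean over probe sets, a replicate block, 2 covariates and leaving out each array; leaving out the 5 arrays of lowest spread together was added after seeing the data. Promoter windows were taken from RefSeq (GRCm38.p6), without those on chromosome 18.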

Additional observations from a re-analysis of the deposited data

Results flagged for a closer look

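In 8 of 132 sets of 5 arrays, 1 member on the 5 arrays of 1 vector group, the highest or lowest array stood far from the other 4. Chance gives about 1 in 20 such cases. Of the 8, 3 were on IFNbeta replicate 3, whose epidermis score was 8.907 and whose array spread was 2.04. There Perp was highest in its group at 10.04, against 6.60 to 6.80 on the other IFNbeta arrays, Ei24 was lowest at 9.28, against 10.15 to 10.37, and Xpc was lowest at 7.82, against 8.06 to 8.13. Combination replicate 4, the array of lowest spread, had the lowest Triap1 value of its group at 7.92, against 8.58 to 8.81. On p19Arf replicate 2 Zmat3 was highest at 9.90, against 9.31 to 9.48, and on p19Arf replicate 5 Dyrk3 was lowest at 8.21, against 8.47 to 8.55. Among the controls, Pmaip1 was highest on eGFP replicate 1 at 7.79, against 7.46 to 7.53, and Apaf1 was lowest on eGFP replicate 5 at 9.74, against 9.92 to 10.00. The part of the epidermis score and of the array spread in these values was not tested.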

How the results depend on the processing

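The named differences kept their sign under every alternative run, and members passed the adjusted threshold only with array weights or with 1 array left out. With array weights 2 passed in p19Arf+IFNbeta against eGFP, 1 in p19Arf+IFNbeta against IFNbeta and 3 in the average with p19Arf against without, where 0.833%, 8.68% and 26.1% of all genes passed. With 1 array left out the count past the adjusted threshold ran from 0 to 1, from 0 to 2 and from 0 to 3 in these comparisons, the highest of the last with Ei24, Steap3 (adjusted p 0.0441) and Ddit4l (0.0489) without IFNbeta replicate 3. There 19.5% of all genes passed in that average and 11.8% in p19Arf+IFNbeta against IFNbeta. The counts at an unadjusted limma p under 0.05 moved more, and the cause was not tested. The share of all genes under 0.05 moved as well and is given in brackets. In IFNbeta against eGFP (5) the count was 2 with quantile normalization (2.71%), 11 with array weights (15.7%), 3 with the muscle score (1.07%), 8 without the 5 arrays of lowest spread (8.09%) and 1 to 7 with 1 array left out (1.41% to 4.5%). In p19Arf against eGFP (3) it was 1 with median centring (7.2%), 5 with quantile normalization (7.28%), 5 with the array spread (4.48%), 0 with the muscle score (9.65%), 1 without the 5 arrays (3.28%) and 0 to 4 (3.35% to 13.5%). In p19Arf+IFNbeta against eGFP (8) it was 4 with the muscle score (13.7%) and 5 to 11 (8.69% to 24.9%). In p19Arf+IFNbeta against IFNbeta (5) it was 3 with quantile normalization (20.1%), 9 with array weights (34.2%), 1 with the array spread (5.03%) and 1 to 11 (12.4% to 36.1%). In p19Arf+IFNbeta against p19Arf (1) it was 0 with median centring (3.41%), 2 with array weights (7.46%), 0 with the muscle score (2.67%), 2 without the 5 arrays (4.33%) and 0 to 4 (2.21% to 9.64%). In the interaction (2) it was 1 with quantile normalization (2.28%), array weights (5.62%), the muscle score (0.968%) or without the 5 arrays (2.92%), and 0 to 3 (0.833% to 3.59%); it was 0 without eGFP replicate 1 or 3, IFNbeta replicate 4 or 5 or p19Arf replicate 1, and 1 without eGFP replicate 4, p19Arf+IFNbeta replicate 1, 4 or 5 or p19Arf replicate 2 or 4. In the average with p19Arf (6) it was 15 with array weights (42%), 3 without the 5 arrays (21%) and 3 to 11 (24.3% to 39.7%). In the average with IFNbeta (5) it was 9 with array weights (14.1%), 2 with the muscle score (2.1%), 9 without the 5 arrays (7.05%) and 1 to 10 (3.44% to 11%). With the replicate number as a block the count was 3 in IFNbeta against eGFP (2.44%), 1 in p19Arf against eGFP (6.2%), 1 in the interaction (1.17%) and 2 in the average with IFNbeta (4.32%), and it changed no call at the adjusted threshold. No sign that the numbers pair the tumors was seen: over 30 pairs of the same number the correlation of deviations ran from -0.624 to 0.657 (median -0.048). Of 20 arrays, 3 correlated best with their own number. A pairing weaker than the other variation among arrays would not show in these values.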
